A study of Saccharomyces cerevisiae with 2 samples.

Results

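The genes described here are 10 linked to the use of allantoin and urea, namely DAL1, DAL2, DAL3, DAL4, DAL5, DAL7, DAL82, DCG1, DUR1,2 and DUR3. They are permease and enzyme genes, the regulator DAL82 and DCG1, whose function is not established. They were chosen by name, and all 10 were found among the 6716 named genes of the files. The comparison was between 1 RNA-Seq library of the Chinese rice wine strain and 1 of the laboratory strain BY4741. The rice wine strain is a wild type that the labels write as YHJ8 and title DY1, and that the study calls YHJ7 and describes as haploid. BY4741 is labelled MATa with ura3△0, lys2△0, leu2△0 and his△1, and it descends from S288c, to whose genome both libraries were mapped. Both strains were grown in the rich medium YPD from an OD600 of 0.05 and harvested at early stationary phase. Each library pooled 2 cultures, so no spread between replicates could be measured and no difference given here has a test. The intervals given cover counting error only. Whether strain, growth state when harvested or mapping to the S288c genome underlies a difference cannot be told apart.

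Allantoin is a nitrogen-rich product of purine breakdown. Yeast imports it, opens its ring, splits the product in further steps to glyoxylate and urea, and then splits urea to ammonia and carbon dioxide. The genes of this route are known to be repressed while a preferred nitrogen source is present, a control called nitrogen catabolite repression that acts through GATA factors, and to be induced by allophanate, an intermediate of urea breakdown, through Dal81 and Dal82. The urea step is also known in wine research, because urea that cells release reacts with ethanol to form ethyl carbamate.

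The files pair each library with the heading of the other strain's sample, and the column headings were followed here. The library headed DY1 had 473 fragments of LEU2 and 768 of URA3, and the library headed BY4741 had 0 of each. MET17, which the label does not list, had 240 fragments in the rice wine library and 0 in BY4741. LYS2 went against the label of BY4741, with 830 fragments in the rice wine library and 1348 in BY4741. HIS3 had 715 fragments in the rice wine library and 548 in BY4741, and since his△1 is known as a partial deletion, this count over the whole gene does not check the label. On all named genes there were 8168620 fragments of the rice wine strain and 10219200 of BY4741.

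A cluster of 6 of the genes lies on chromosome IX of the S288c reference (sacCer3), from 406260 to 415617, in the order DAL1, DAL4, DAL2, DCG1, DAL7 and DAL3. The other 4 lie apart, DUR1,2 (YBR208C) on chromosome II, DUR3 (YHL016C) on chromosome VIII, DAL5 (YJR152W) on chromosome X and DAL82 (YNL314W) on chromosome XIV. The cluster and DAL5 are near chromosome ends, at 24.3 to 32.2 kb for the cluster genes and 24.5 kb for DAL5. GATA factors bind the letters GATAAG, and the Dal82 element holds the core AAATTGCG. Both were searched on both strands from 250 bases before the first base of each gene to 50 bases after it. GATAAG was present in the windows of 6 of the 10 genes with 15 matches, and in 14.7% of 6001 promoters of the same length. Of the 10, 4 had at least 2 matches, against 1.62% of all promoters. The shorter GATAA, which every GATAAG contains, was present in the windows of 9 of the 10 and in 61.5% of all promoters. AAATTGCG was present in the windows of DAL1 and DAL7 and in 1.23% of all promoters. These matches are a description of the reference sequence, not of the rice wine strain's own DNA.

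The windows of 4 cluster genes are printed. DAL3 and DCG1 had the largest differences of the 10 in either direction in the values as deposited, and DAL1 and DAL7 hold the Dal82 core. Capitals mark GATAAG or its reverse complement and AAATTGCG, and the sequence is that of the reference, 5′ to 3′ on the gene's strand.
DAL3, chrIX:415568-415867, reverse strand: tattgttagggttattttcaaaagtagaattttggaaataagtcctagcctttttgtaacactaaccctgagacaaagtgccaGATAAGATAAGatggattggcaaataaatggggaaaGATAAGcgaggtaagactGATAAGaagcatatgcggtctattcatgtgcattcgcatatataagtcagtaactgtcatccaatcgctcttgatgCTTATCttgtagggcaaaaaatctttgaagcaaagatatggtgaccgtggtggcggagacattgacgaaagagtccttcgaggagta
DCG1, chrIX:412721-413020, reverse strand: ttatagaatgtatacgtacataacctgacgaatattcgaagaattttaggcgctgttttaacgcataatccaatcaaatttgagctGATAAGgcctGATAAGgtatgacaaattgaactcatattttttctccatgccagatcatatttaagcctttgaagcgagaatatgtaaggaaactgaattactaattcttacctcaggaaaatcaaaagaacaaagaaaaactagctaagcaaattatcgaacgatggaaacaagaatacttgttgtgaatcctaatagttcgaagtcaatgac
DAL7, chrIX:414630-414929, reverse strand: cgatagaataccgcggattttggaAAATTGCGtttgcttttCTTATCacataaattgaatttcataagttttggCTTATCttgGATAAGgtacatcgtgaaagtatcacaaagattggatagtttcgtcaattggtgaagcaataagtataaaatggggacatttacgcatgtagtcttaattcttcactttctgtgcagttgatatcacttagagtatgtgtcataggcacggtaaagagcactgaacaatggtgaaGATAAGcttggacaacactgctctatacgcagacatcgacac
DAL1, chrIX:407593-407892, reverse strand: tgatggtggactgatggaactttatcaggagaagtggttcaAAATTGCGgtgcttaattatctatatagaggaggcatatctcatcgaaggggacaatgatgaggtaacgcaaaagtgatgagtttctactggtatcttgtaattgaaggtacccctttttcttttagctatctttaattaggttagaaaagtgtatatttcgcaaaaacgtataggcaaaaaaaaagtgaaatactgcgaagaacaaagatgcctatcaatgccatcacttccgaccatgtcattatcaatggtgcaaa
The DAL3 window held 5 GATAAG matches, 2 of them overlapping, and the DAL7 window held 4. The DCG1 window held 2, which began at positions -164 and -154 from the start. The DAL1 window held none, as did those of DAL4, DUR3 and DUR1,2.

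**Figure D1:**
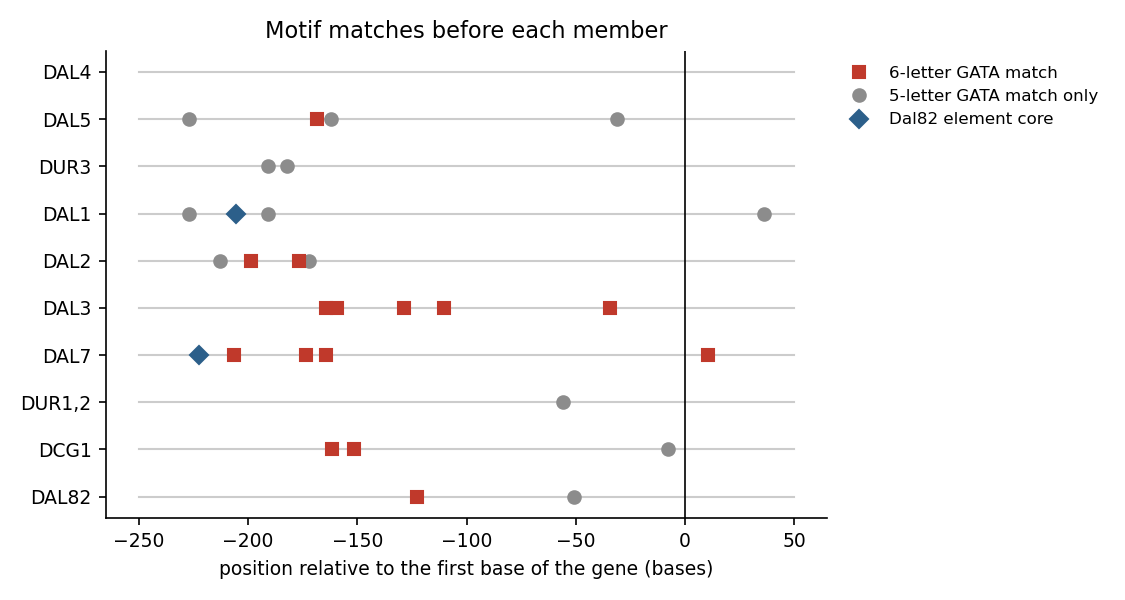
Matches to GATAAG (squares), to GATAA alone (circles) and to the Dal82 core (diamonds) from 250 bases before to 50 bases after the first base of each gene, in bases along the x axis. DAL3 has 5 squares and DAL7 has 4, while DAL4 has no match.

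Most of the 10 genes were transcribed at a low level in both strains. Expression is given as FPKM, fragments per length of transcript and per sequencing depth, so genes can be compared per length. The median FPKM of the 10 was 13.6 in the rice wine library and 16.6 in BY4741, against 42.4 and 39.8 over all genes, and in each library 8 of the 10 were below the median of all genes. The exceptions were DAL82 and DAL2. The 10 together took 0.0267% of the counted fragments of the rice wine strain and 0.0394% of those of BY4741.

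**Figure D2:**
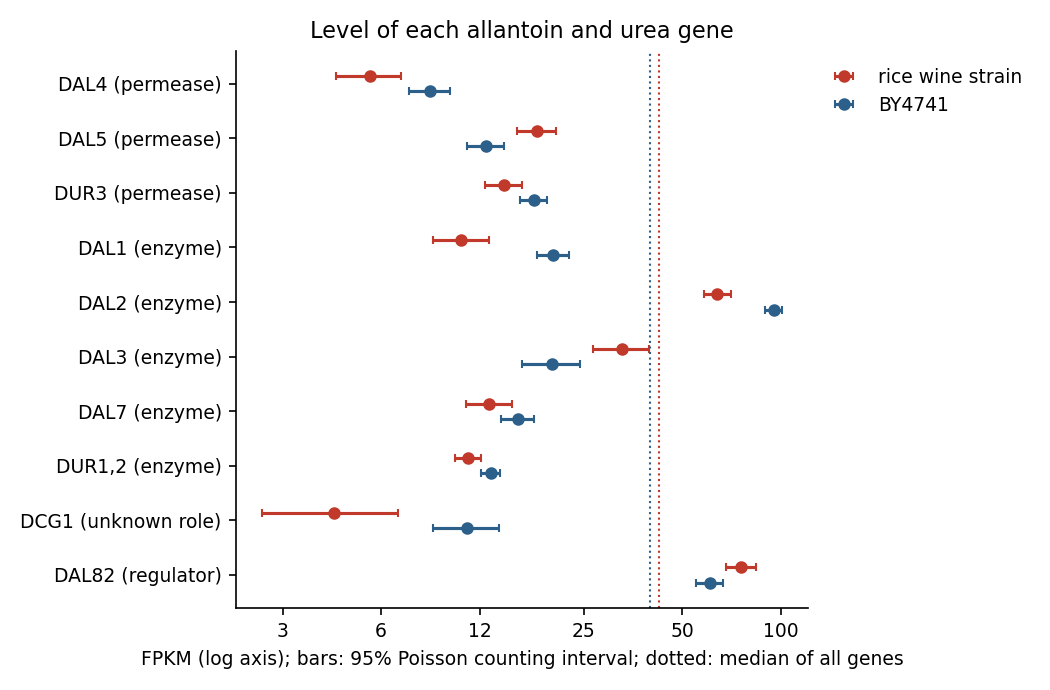
FPKM of each gene on a log axis in the rice wine strain (red, upper point of each pair) and BY4741 (blue, lower point), with 95% Poisson counting intervals and dotted lines at the median of all genes. DAL82 and DAL2 lie right of both lines, and the other 8 genes lie left of them.

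The order of the levels was not the same in the 2 libraries. In the rice wine strain DAL82 was first at 75.6 FPKM and DAL2 second at 63.9, though their counting intervals overlap. In BY4741 DAL2 was first at 95.1 FPKM and DAL82 second at 60.7, with intervals apart. Relative to DAL82 in the same library, a ratio that does not depend on how the libraries were scaled, DAL2 stood at 0.846 in the rice wine strain and 1.57 in BY4741, a log2 difference of -0.89 with a 95% counting interval from -1.15 to -0.63. In the rice wine strain DAL3 followed at 32.6 FPKM, apart from both neighbours in the order, and then DAL5, DUR3, DAL7, DUR1,2 and DAL1 from 18.0 to 10.6 FPKM, each overlapping the next. DAL4 and DCG1 came last. In BY4741 DAL1, DAL3, DUR3 and DAL7 stood together from 20.2 to 15.7 FPKM, each overlapping the next, and DUR1,2, DAL5, DCG1 and DAL4 followed from 13.0 to 8.45 FPKM.

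No gene of the 10 differed by 4-fold or more, on the log2(FPKM + 1) scale on which differences are given (which makes differences of weakly expressed genes look smaller). Over all 6716 genes, 3.75% were at least 4-fold lower and 2.74% at least 4-fold higher in the rice wine library. At 2-fold, 1 of the 10 was lower, which was DCG1, against 9.84% of all genes, and none was higher, against 12.4%. Both the count and the gene depend on the values used. With library totals made equal, DAL1 and DCG1 were both at least 2-fold lower, at -1.18 and -1.46, against 15.9% of all genes. In the authors' table of comparisons, where DCG1 shares a value with DAL7, DAL1 alone was past 2-fold, at -1.02. The share of all genes was not computed there. With a pseudocount of 10 none of the 10 was at least 2-fold lower, against 4.59% of all genes. By sign alone, 7 of the 10 were lower in the rice wine strain, against 49.2% of all genes, and 3 were higher, against 49.6%, though with library totals made equal 8 were lower and 2 higher. That scaling moved the median of all genes to -0.30 and left 4454 of the 6716 genes lower. The median difference of the 10 was -0.28, and the median over all genes was 0.00. The median was -0.04 over the 3772 genes whose mean FPKM lay within the range of the 10. The 95% counting interval of the count ratio lay below 0 for the same 7 and above 0 for the same 3. It also lay below 0 for 33.4% and above 0 for 37.3% of all genes with at least 1 fragment. At most genes the libraries thus differed by more than counting error.

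**Figure D3:**
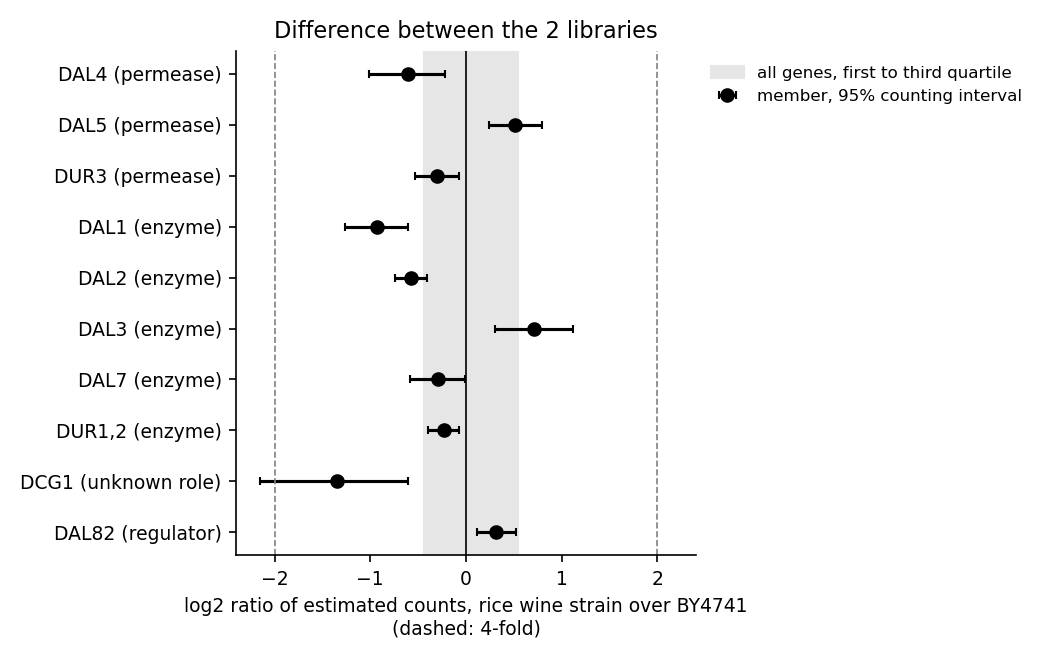
Log2 ratio of the estimated counts, rice wine strain over BY4741, with 95% counting intervals for each gene, the grey band being the interquartile range of all genes above 0 in both libraries. DCG1, DAL1, DAL2 and DAL4 lie left of the band and DAL3 right of it, and no point reaches the dashed 4-fold lines.

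Among the permeases, DAL4 and DUR3 were lower and DAL5 was higher in the rice wine library. DAL4, which encodes the allantoin permease, had an FPKM of 5.54 in the rice wine strain from 78 fragments and 8.45 in BY4741 from 187 fragments. The log2 count ratio was -0.61, with a counting interval from -1.01 to -0.22. DUR3, the urea permease that also carries polyamines, had 14.3 FPKM in the rice wine strain and 17.6 FPKM in BY4741, from 236 and 457 fragments, a log2 ratio of -0.30 (-0.53 to -0.07). DAL5 encodes the permease for allantoate and ureidosuccinate. It had 18.0 FPKM in the rice wine strain and 12.6 FPKM in BY4741, from 212 and 233 fragments, a log2 ratio of 0.52 (0.24 to 0.79). Summed over the 3 permease genes, FPKM was 37.8 in the rice wine strain and 38.6 in BY4741, a near-level sum that holds only for the deposited scaling. The sum with equal library totals was 33.7 in the rice wine strain and 43.2 in BY4741.

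Of the 5 enzyme genes, 4 were lower in the rice wine library and DAL3 was higher. DAL1 encodes allantoinase, which opens the ring. Its FPKM was 10.6 in the rice wine strain, from 103 fragments, and 20.2 in BY4741, from 309 fragments, so it was 1.91-fold higher in BY4741, with a log2 ratio of -0.93 (-1.27 to -0.61). DAL2 encodes allantoicase, which makes ureidoglycolate and urea, and it was the most abundant of the enzymes in both libraries. It had 63.9 FPKM in the rice wine strain and 95.1 FPKM in BY4741, from 438 and 1024 fragments, a log2 ratio of -0.57 (-0.74 to -0.41).

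DAL3 encodes ureidoglycolate lyase, which releases glyoxylate and urea. It had 32.6 FPKM in the rice wine strain and 20.0 FPKM in BY4741, from 104 and 100 fragments, and was 1.64-fold higher in the rice wine strain with a log2 ratio of 0.71 (0.30 to 1.12). DAL3 thus differed in direction from the gene for the preceding step. Within a library, the FPKM of DAL3 was 0.510 times that of DAL2 in the rice wine strain and 0.210 times that of DAL2 in BY4741. The log2 difference between these ratios was 1.28, with a counting interval from 0.85 to 1.71.

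DAL7 encodes a malate synthase, which can use the glyoxylate. Its FPKM was 12.8 in the rice wine strain and 15.7 in BY4741, from 155 and 298 fragments, a log2 ratio of -0.29 (-0.58 to -0.01). MLS1, the other malate synthase gene, had 1890 FPKM in the rice wine strain and 3706 in BY4741. The coding sequences of DAL7 and MLS1 are 74.1% identical in the reference, and their longest shared run is 19 bases. No window of 50 bases of any of the 10 genes occurs elsewhere in the reference. The fragments of 9 of the 10 genes were whole numbers within 0.021 in both libraries, and those of DAL7 were not. In the files its locus overlaps that of YIR030W-A, and whether fragments of other genes enter the DAL7 value was not tested.

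DUR1,2 encodes urea amidolyase, a biotin enzyme that carboxylates urea to allophanate and then splits it. This gene, with the longest reading frame of the 10 at 5508 bases, had 484 fragments and 11.1 FPKM in the rice wine strain, and 893 fragments and 13.0 FPKM in BY4741. The log2 ratio was -0.23 (-0.39 to -0.07). The 5 enzyme genes together had an FPKM of 131.0 in the rice wine strain and 163.9 in BY4741, as deposited. Of these sums DAL2 alone made up 63.9 and 95.1, so most of their difference is that of DAL2.

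DCG1, a gene of the cluster whose function is not established, had the largest difference of the 10 in the values as deposited, and the fewest fragments in both libraries. It had 4.32 FPKM in the rice wine strain from 19 fragments and 11.0 FPKM in BY4741 from 76 fragments. The log2 ratio was -1.35, and its counting interval from -2.16 to -0.61 is the widest of the 10. DAL82, the regulator of the induction by allophanate, had 75.6 FPKM in the rice wine strain and 60.7 FPKM in BY4741, from 353 and 446 fragments, a log2 ratio of 0.32 (0.11 to 0.52) whose direction depends on the scaling, since the difference was -0.014 with library totals made equal. DAL3 and DAL5 were still higher in the rice wine library under that scaling, by 0.37 and 0.18.

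Of the 6 genes of the chromosome IX cluster, 5 were lower in the rice wine library and DAL3 at its right end was higher, and the median difference was -0.55. The 4 genes elsewhere had a median of 0.05, with DAL5 and DAL82 higher and DUR1,2 and DUR3 lower, and with library totals made equal DAL82 turned lower and the median of these 4 was -0.27. The median of the cluster was then -0.85. Summed over the cluster, FPKM as deposited was 129.8 in the rice wine strain and 170.3 in BY4741, of which DAL2 alone made up 63.9 and 95.1. Relative to the other 5 cluster genes in the same library, DAL3 was higher in the rice wine strain by 2.00-fold against DAL7, 2.43-fold against DAL2, 2.49-fold against DAL4, 3.12-fold against DAL1 and 4.16-fold against DCG1. The counting interval of each of these 5 ratios lay above 1. All 5 share the fragments of DAL3, so they are not 5 separate observations. Since DAL3 was the only cluster gene that was higher, each ratio had to exceed 1.

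The neighbours of the cluster went both ways. Of the 10 named genes to its left, 6 were lower and 4 higher, with a median difference of -0.17. Of the 9 to its right, 6 were lower and 3 higher, with a median of -0.19. Some of these signs rest on few fragments. YIR018C-A had 3 fragments in the rice wine library and 7 in BY4741, YIR021W-A had 1 and 2, and PAU15 had 0 and 3.7. The counting intervals of these lower genes included 0, as did those of FLO11 and DAL81, also lower. Among the higher genes, the intervals of SEC11 and LYS1 included 0. When totals were made equal, 7 were lower and 3 higher to the left, with a median of -0.45, and 7 were lower and 2 higher to the right, with a median of -0.52. The gene next to DAL1, YVH1, a protein phosphatase gene, had 59.4 FPKM in the rice wine strain and 22.8 FPKM in BY4741, a difference of 1.35. The gene next to DAL3, MGA2, which encodes a membrane-bound activator of OLE1, had 82.6 FPKM in the rice wine strain and 24.7 FPKM in BY4741, a difference of 1.70. Both flanking genes were thus higher in the rice wine library, as DAL3 was. Around the 4 genes elsewhere, 9 of 16 neighbours were higher and 6 lower, which turned to 6 higher and 9 lower with library totals made equal. Of these neighbours, YJR151W-A had 0 fragments in both libraries. YHL015W-A, counted as lower, had 0 fragments in the rice wine library and 4 in BY4741, and its interval included 0. So did those of PHA2, also lower, and of MCO14 and YHL017W, both higher.

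**Figure D4:**
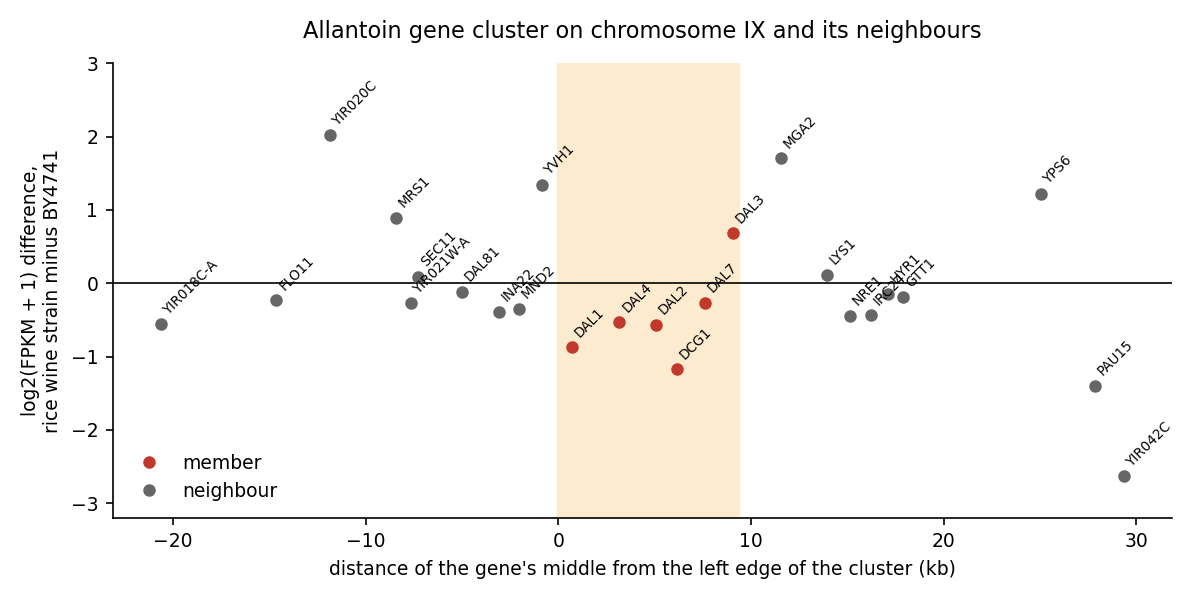
Difference in log2(FPKM + 1), rice wine strain minus BY4741, of the cluster genes (red, shaded span) and of 19 neighbours (grey), by distance in kb from the left edge of the cluster. The 5 genes from DAL1 to DAL7 lie below 0, and DAL3 and the adjacent genes YVH1 and MGA2 lie above 0.

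The known regulators of the route were all within 2-fold between the libraries. Of 6 regulator genes, 5 were lower and 1 was higher in the rice wine strain, with differences from -0.54 to 0.09 and a median of -0.19. With library totals made equal all 6 were lower, with a median of -0.48. DAL81, the partner of DAL82 in induction, had 13.7 FPKM in the rice wine strain and 14.9 FPKM in BY4741. DAL80, a GATA repressor of these genes, had 6.06 FPKM from 30.4 fragments in the rice wine strain and 7.43 FPKM from 58.6 fragments in BY4741, and its counting interval included 0. GLN3, a GATA activator, had 16.1 FPKM in the rice wine strain and 24.0 FPKM in BY4741, a difference of -0.54.

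Of the 2 genes that turn arginine to urea and onwards, CAR1 was higher in the rice wine library under either scaling, and CAR2 was higher as deposited but level, at 0.00, with library totals made equal. CAR1, which encodes arginase and so produces urea, had 101.3 FPKM in the rice wine strain and 43.0 FPKM in BY4741, a difference of 1.22 with a counting interval of the ratio from 1.06 to 1.41. CAR2, which encodes the aminotransferase that uses the ornithine formed, had 59.5 FPKM in the rice wine strain and 47.3 FPKM in BY4741, a difference of 0.33. CAR1 was at 0.89, under 2-fold, with library totals made equal. DUR1,2 and DUR3, for breakdown and uptake of urea, were at -0.21 and -0.28 as deposited. With library totals made equal they were at -0.52 and -0.59, beside a median of -0.30 over all genes. That scaling lowers every ratio, so it could not have turned these 2 genes higher.

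The other genes under nitrogen catabolite repression went both ways. Of 12 measured, 5 were higher and 7 lower in the rice wine strain, with a median difference of -0.02, and none reached 4-fold. With library totals made equal, 3 were higher and 9 lower, with a median of -0.35. DIP5, a permease for acidic amino acids, had 962.7 FPKM in the rice wine strain and 426.9 FPKM in BY4741, a difference of 1.17. UGA4, the permease for 4-aminobutyrate, had 4.64 FPKM in the rice wine strain and 12.3 FPKM in BY4741, a difference of -1.24. GAP1, the general amino acid permease, had 146.9 FPKM in the rice wine strain and 148.3 FPKM in BY4741. A median difference of -0.28 for the 10 allantoin and urea genes therefore stands beside -0.19 for their regulators, -0.02 for these targets and 0.10 for 5 housekeeping genes. With library totals made equal, these medians were -0.59, -0.48, -0.35 and -0.23 in the same order. As deposited, the 5 housekeeping genes ran from -0.74 to 0.72, so their median is no stable baseline.

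**Figure D5:**
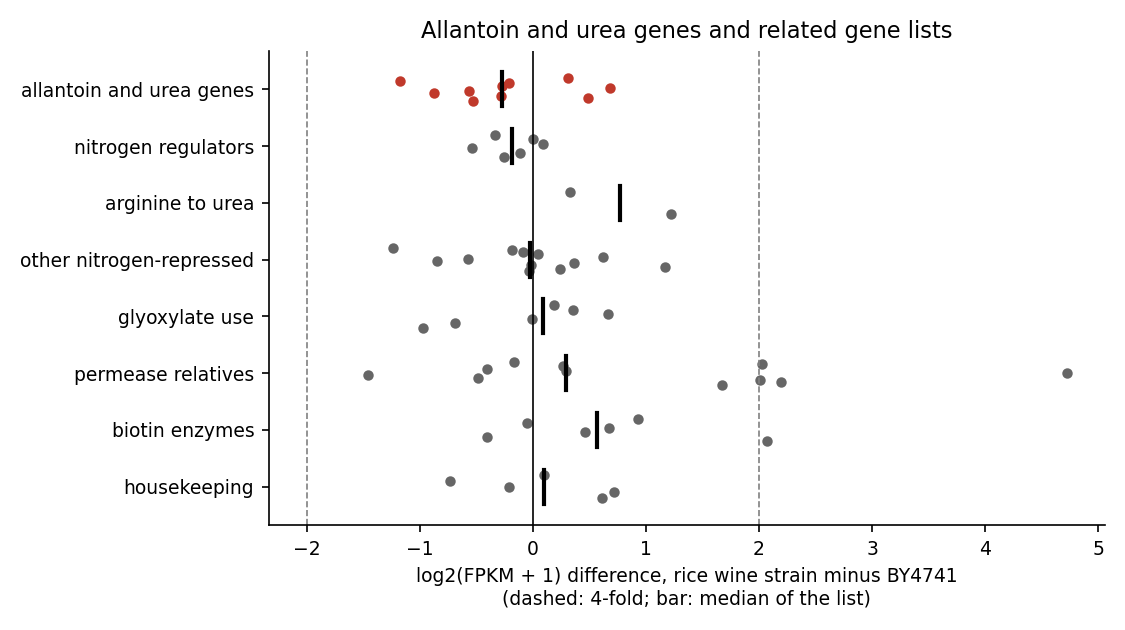
Difference in log2(FPKM + 1), rice wine strain minus BY4741, of the 10 allantoin and urea genes (red) and of related gene lists (grey), 1 point per gene with a black bar at each median. The 10 genes lie between -1.17 and 0.68, inside the dashed 4-fold lines, and in these values, scaled as deposited, 4 permease relatives and 1 biotin enzyme lie beyond the right line. Of all genes, 2.74% were at least 4-fold higher in the rice wine library.

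Of 6 genes for the use of glyoxylate, 3 were higher and 3 lower in the rice wine strain, with a median difference of 0.09, which turned to -0.24 with library totals made equal. AGX1, which converts glyoxylate to glycine, had 2164 FPKM in the rice wine strain and 1898 FPKM in BY4741, a difference of 0.19 that turned to -0.14 under that scaling. ICL1, which encodes isocitrate lyase and forms glyoxylate from isocitrate, had 4644 FPKM in the rice wine strain and 7479 FPKM in BY4741, a difference of -0.69. DAL7 was thus transcribed at a level far below the glyoxylate genes MLS1, ICL1 and AGX1 in both strains, and DAL7, MLS1 and ICL1 were all lower in the rice wine library.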

How the data were processed

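RNA of 1 library per strain, each a pool of 2 cultures, was sequenced, and reads were aligned by the authors with TopHat2 2.0.4 to sacCer3, the S288c genome, and genes were quantified with Cufflinks 2.0.2. The authors deposited for each gene an estimated count and an FPKM value, both carrying a factor for the library. The strand setting of the libraries is not given in the sources used here. Columns were assigned by their headings. The deposited estimated counts were divided by the worth of 1 fragment, 1.253 in the rice wine library and 0.797 in BY4741, the largest step that made nearly as many values whole (a share at most 0.1 below the best) as any other. An unnamed row was left out, with 0.309% of the rice wine counts and 0.806% of those of BY4741. Fold changes, p-values and q-values of the authors' table of comparisons were not used, and its FPKM values served as an alternative. Intervals of ratios are exact binomial (Clopper-Pearson) and those of levels Poisson, at 95%. Ratios between 2 genes within a library have a normal interval of the log ratio. The step search and intervals were tested on simulated data. No count model was fitted. Promoters and coding sequences (in place of proteins, as planned for the relatives) were read from the RefSeq genome GCF_000146045.2 (R64), the assembly that sacCer3 represents. The genes and lists were chosen with earlier results of these data known. The text names all 10 genes and at most 3 genes of each list, besides neighbours by position and strain markers. Python 3.11.15, NumPy 2.4.6, pandas 2.3.3, SciPy 1.17.1, Biopython 1.88 and matplotlib 3.10.9 were used.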

Additional observations from a re-analysis of the deposited data

How the results depend on the processing

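No paired analysis was possible because there was 1 library of either strain, so none could be omitted in turn. Under the 5 alternatives that give each of the 10 genes a difference, 42 of 50 values stayed within counting error. Another 7 moved beyond it in the same direction and 1 reversed. The count ratio is 1 of these alternatives, and the counting interval is its own, so its 10 values could not move. A pseudocount of 0.1 gives nearly the count ratio, at -1.33 against -1.35 for DCG1, so its 10 values could hardly move either. With library totals made equal, 5 stayed, 4 moved and 1 reversed. The reversed value is that of DAL82, at -0.014 with library totals made equal, and the median of the 10 genes was then -0.59. That scaling moved every log2 ratio by -0.33. Without the chromosome IX cluster, where 5 of 6 genes were lower, the median of the 4 remaining genes was 0.049 in the values as deposited. The negative median of the 10 in those values thus rests on the cluster. With a fold threshold of 2, 1 of the 10 genes was lower (DCG1), beside 9.84% of all genes. With library totals made equal 2 were lower (DAL1 and DCG1), beside 15.9%, and with a pseudocount of 10 it was 0, beside 4.59%. In the authors' table of comparisons 1 was lower (DAL1), and the share of all genes was not computed there. No gene of the 10 was 4-fold lower or higher with the scaling, with the FPKM values of the authors' table of comparisons or with count ratios. Leaving out DAL7 or raising the threshold to 16-fold could not add a gene to a count of 0. Keeping only genes averaging 1 FPKM or more removed none of the 10, so it could not change the count either. In the table of comparisons DAL2 shares 1 value with DAL4 and DAL7 shares 1 with DCG1, so 4 of the 10 genes have no value of their own there. Of these, DAL2, DAL4 and DCG1 were counted as staying within counting error on such a shared value. With the step of the highest share, the fragments of the 10 genes were 13092 in the rice wine strain and 8046 in BY4741, against 2182 and 4023 here, so fragment counts and counting intervals depend on that choice, and ratios of FPKM do not. DCG1 rests on 19 fragments in the rice wine library, where depth limits its ratio most.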

Other observations

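Relatives of the permeases DAL4 and DAL5 were spread more widely than the allantoin and urea genes. Of 11 relatives, 7 were higher and 4 lower in the rice wine library, with a median difference of 0.29, which turned to 5 higher and 6 lower and a median of -0.03 with library totals made equal. As deposited, 4 were at least 4-fold higher, beside 2.74% of all genes. With library totals made equal VHT1 alone was, beside 110 of the 6716 genes. The list was chosen with earlier results of these data known, so its spread and these counts are a description only. FUI1, the uridine permease and a relative of DAL4, had 159.6 FPKM in the rice wine strain and 34.1 FPKM in BY4741, a log2(FPKM + 1) difference of 2.20, or 1.87 with library totals made equal. FUR4, the uracil permease, had 35.0 FPKM in the rice wine strain and 10.3 FPKM in BY4741, a difference of 1.67. URA3, of pyrimidine synthesis, had 768 fragments in the rice wine strain and 0 in BY4741, and its part in these differences was not tested. DAL4 itself differed by -0.53, and its coding sequence is 69.0% identical to that of FUR4, with a longest shared run of 17 bases. VHT1, the biotin permease and a relative of DAL5, was named after its value was seen. It had 999.4 FPKM in the rice wine strain and 36.9 FPKM in BY4741, a difference of 4.72.

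DUR1,2 is one of the few biotin enzymes of yeast. Of 6 genes for the other biotin proteins and their ligase, 4 were higher and 2 lower in the rice wine library, with a median difference of 0.57, or 0.24 with library totals made equal. ACC1, which encodes acetyl-CoA carboxylase, had 368.6 FPKM in the rice wine strain and 86.8 FPKM in BY4741, a difference of 2.07, or 1.75 with library totals made equal, which is under 4-fold. BPL1, which encodes the ligase that attaches biotin, had 32.2 FPKM in the rice wine strain and 16.4 FPKM in BY4741, a difference of 0.93. DUR1,2 differed by -0.21.

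Beside DAL5, YJR154W had 239.9 FPKM in the rice wine strain from 1661 fragments and 20.0 FPKM in BY4741 from 218 fragments, a difference of 3.52. It was named after its value was seen. PGU1, which lies between DAL5 and YJR154W and encodes a polygalacturonase, had 10.6 FPKM in the rice wine strain and 24.6 FPKM in BY4741, a difference of -1.15.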
